A study of Rattus norvegicus with 35 samples.

Results

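The effect of Mitsui-7 carbon nanotubes on lung gene expression was compared with vehicle in rats heterozygous for p53 (p53het). The comparison used the 12 arrays of the 35 in the series whose titles name p53het rats given Mitsui-7 (6 arrays) or p53het controls (6 arrays), with 1 array per rat. All 12 rats were female Sprague Dawley, 12 weeks old when dosing began, and carried the p53 alteration. The Mitsui-7 rats received an instillation into the trachea each week for 4 weeks at 0.25 mg per rat, and the controls received the vehicle, Pluronic. The labels do not say whether 0.25 mg was each instillation or the total, how the p53 allele was altered, or in which cells. RNA came from the accessory lobe of the lung, taken 3 days after exposure. The other arrays were p53het rats given NM-403, another multi-walled carbon nanotube (5), and wild-type (WT) rats given Mitsui-7, NM-403 or vehicle (6 each). They entered the model with all groups, and are described only where they bear on the p53het response to Mitsui-7.

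Mitsui-7 is a rigid multi-walled carbon nanotube. Fibres of this kind that reach the alveoli are engulfed by macrophages and cleared slowly, and in rodents they are known for lasting inflammation, mucous changes of the airway, fibrosis and mesothelial injury. The p53 protein is a transcription factor that halts the cell cycle and activates repair or death genes after DNA damage, and loss of an allele shortens tumour latency in rodents. Lung tissue was measured in bulk, so that fewer cells of a type and less RNA per cell cannot be told apart.

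Expression values are log2 processed signal minus the 75th percentile of the same array, so that 0 is a bright level that most spots do not reach. Group values are given as the lowest, median and highest array. A gene was called when limma's p-value, with Benjamini-Hochberg adjustment across the 24464 genes tested, was under 0.05, and the words rose and fell are used only for called genes. Errors are limma's standard errors with 6 arrays per group. Of the spots outside the controls, 71.1% to 73.7% were well above background on the Mitsui-7 arrays and 68.5% to 73.6% on the control arrays, and 0 spots were saturated. Each group lay on 5 slides, and slide was a term in the model.

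Control replicate 6 stood apart from the other controls. On the principal component that carried most variance (29.0%) it scored 45.0, within the range of the Mitsui-7 arrays (18.2 to 47.9), whereas the other 5 controls scored -64.1 to -31.0. Its deviations from the mean of the other controls had an SD of 0.85 log2 units across genes, against 0.43 to 0.64 for each other control measured in the same way. The deviations of replicate 6 correlated with the Mitsui-7 effect in WT rats at r = 0.386 across genes. Without this array 6375 genes were called in place of 5578, 2853 higher and 3522 lower. Where a call named below was lost without it, the value without it is given, for the genes picked by the rule described under processing.

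Mitsui-7 changed a large part of the p53het lung transcriptome. Of the 24464 genes, 5578 were called (22.8%), of which 2179 rose (8.91% of all genes) and 3399 fell (13.9%). The list counts below are to be read against these shares. The rises were steeper than the falls: of the 703 called genes that changed at least 2-fold, 528 rose and 175 fell, and of those past 4-fold 134 rose and 13 fell. The groups did not overlap for 1224 genes (5% of all tested), 657 higher and 567 lower. Differences within the slides had the same sign on all 5 slides for 87.5% of the called genes, against 30.8% of all genes. Scaling each array to its median instead moved the share of rises among called genes, 39.1%, to 50.7% (2474 higher, 2405 lower), and in the authors' own matrix it was 54.0% (1714 higher, 1458 lower).

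The steepest rise was that of Spp1, which encodes osteopontin, a matrix glycoprotein and cytokine secreted by macrophages and injured epithelium. Spp1 read 2.89, 3.60 and 3.73 on the Mitsui-7 arrays, against -4.62, -2.94 and -2.13 on the control arrays. The groups lay far apart, and the log2 difference was 6.59 ± 0.32, a 96.3-fold rise (limma adjusted p = 5.6e-14). Control replicate 6 was the lowest control, and without it the difference was 6.26. Mt3, a metallothionein that binds zinc and copper and is best known from the brain, read -1.51, -1.17 and -0.06 against -7.21, -6.81 and -6.07 on the controls, of which only 1 array was above background (log2 difference 5.73 ± 0.34, limma adjusted p = 2.6e-12). Il24, a cytokine of the IL-20 family that acts on epithelium, read -2.62, -2.24 and -1.72 on the Mitsui-7 arrays and -8.01, -7.13 and -6.20 on the controls (log2 difference 4.97 ± 0.30, limma adjusted p = 2.6e-12). For each of these genes every Mitsui-7 array was above every control array.

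The other large rises included Foxn4, a forkhead transcription factor (log2 difference 3.92 ± 0.27), Aqp3, a water and glycerol channel of basal epithelial cells (3.77 ± 0.26), and Upk3bl1, a uroplakin-like membrane protein (3.86 ± 0.39). Some genes were not well above background on any control array, so that only bounds can be given. Cxcl11, a ligand of the chemokine receptor CXCR3, was at least 5.82-fold higher with Mitsui-7 (limma adjusted p = 8.2e-08). Reg3b, an antimicrobial lectin, was at least 5.11-fold higher (limma adjusted p = 1.6e-06), while for Sctr, a receptor of the hormone secretin, the bound was 4.25 (at least 4.25-fold higher, limma adjusted p = 6.8e-09). Sctr stood in the neural and neuroendocrine list, of whose 15 measured members it was the 1 that rose while Tac1 and Npy fell, Npy not without any of 3 single arrays. In all, 85 called genes that rose were not above background on any control array.

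**Figure D1:**
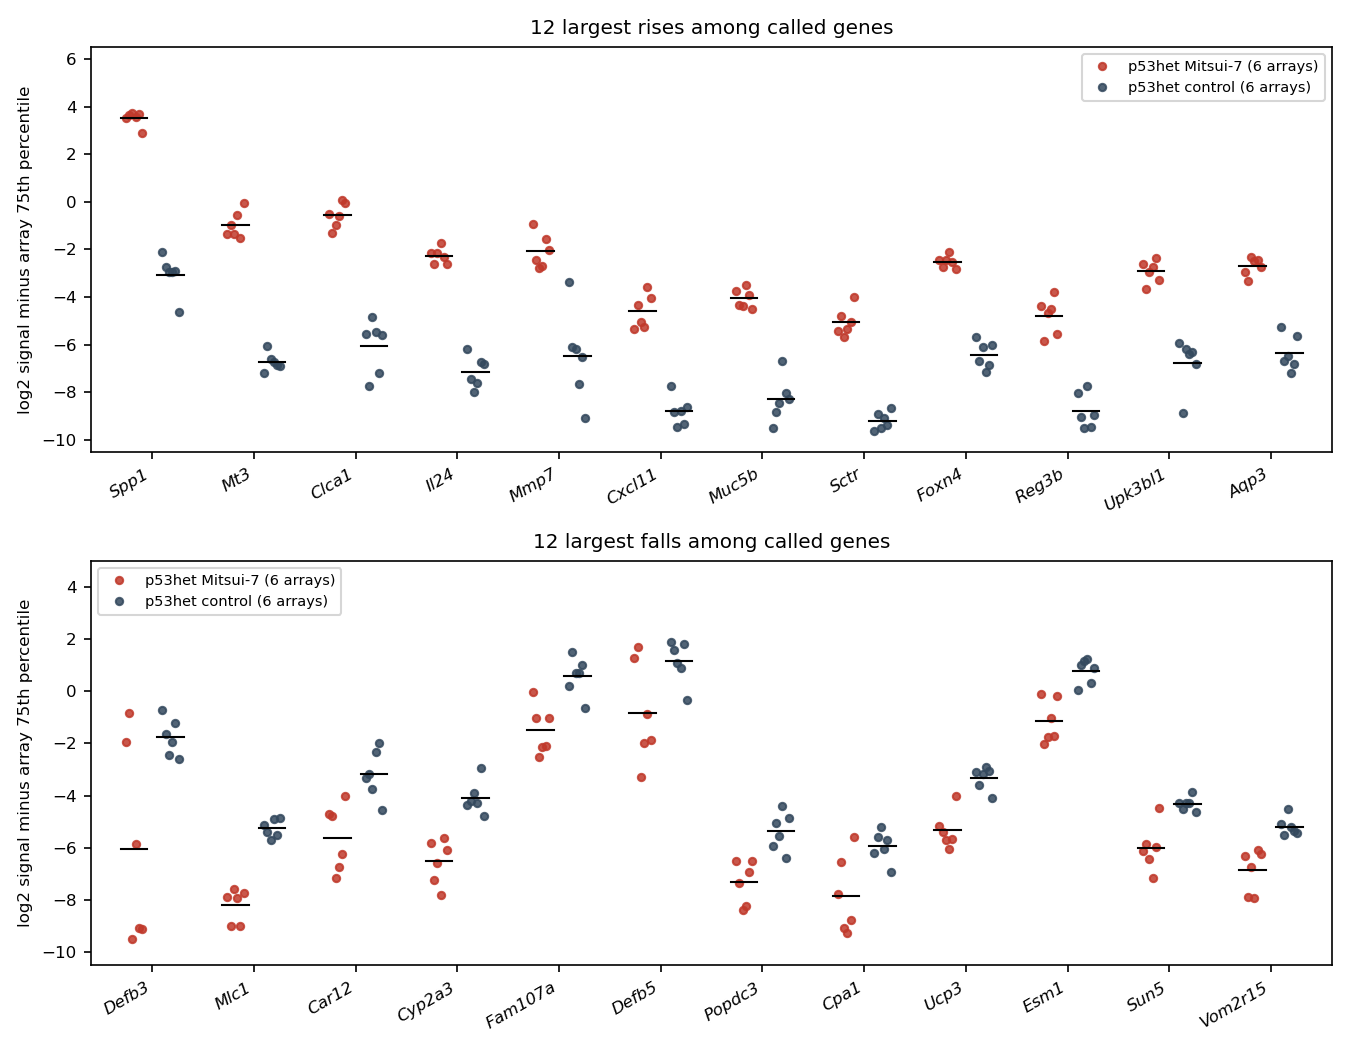
Values on each array for the 12 genes with the largest rise (top) and the 12 with the largest fall (bottom) among called, symbol-bearing genes measured above background throughout the brighter group. The vertical axis is log2 signal minus the array's 75th percentile, each point is 1 array, red points are p53het Mitsui-7 and dark points p53het control, and black lines are group means. All 12 rises separate the groups, whereas several falls, such as Defb3 and Defb5, have Mitsui-7 arrays within the control range.

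The largest falls were less even. Defb3, a beta-defensin, read -9.51, -7.46 and -0.83 on the Mitsui-7 arrays, against -2.60, -1.79 and -0.71 on the controls. The Mitsui-7 arrays spread over more than 8 log2 units and 2 of them lay within the control range (log2 difference -4.58 ± 1.37, limma adjusted p = 0.016, 0.059 without Mitsui-7 replicate 3 and 0.056 with normexp background correction). Defb5, another beta-defensin, also overlapped and fell by 2.26 ± 0.75, a call lost without any of 6 single arrays. By contrast Cyp2a3, a cytochrome P450 of the airway epithelium, read -7.81, -6.33 and -5.62 against -4.76, -4.25 and -2.96 on the controls, with no overlap (log2 difference -2.53 ± 0.37, limma adjusted p = 1.7e-05). Esm1, an endothelial proteoglycan, read -2.01, -1.37 and -0.11 against 0.04, 0.94 and 1.24 on the controls (log2 difference -1.94 ± 0.34, limma adjusted p = 0.00017). Mlc1, a membrane protein known from astrocytes, was not above background on any Mitsui-7 array and was at least 3.62-fold lower (limma adjusted p = 0.00025). Car12, a membrane carbonic anhydrase, fell by 2.61 ± 0.43, Fam107a, an actin-associated stress gene, by 2.30 ± 0.36, and Ucp3, a mitochondrial uncoupling protein, by 2.09 ± 0.37. The ranges of these last 3 genes overlapped between the groups.

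Airway secretion genes rose strongly. Of the 17 measured genes of mucous cell metaplasia, the replacement of airway cells by mucus-secreting ones, 12 rose, 0 fell and 5 did not pass, with a median log2 difference of 1.55 against -0.05 over all genes. With normexp background correction, an alternative that starts from the raw mean and background signals, 10 rose and the median was 0.65. The authors' matrix held 7 of these genes, and all 7 rose there. The mucin gene Muc5ac and Tff2 were on the array but were removed by the filter, so they are not among the measured genes. Clca1, a goblet cell protein that is secreted with mucus, read -1.31, -0.55 and 0.06 on the Mitsui-7 arrays, against -7.76, -5.59 and -4.84 on the controls. The 2 ranges were well apart (log2 difference 5.43 ± 0.49, limma adjusted p = 8.6e-09). Muc5b, a gel-forming mucin, read -4.50, -4.12 and -3.49 against -9.49, -8.36 and -6.70 on the controls, of which 1 array was above background (log2 difference 4.11 ± 0.46). Ern2, an endoplasmic reticulum stress sensor of mucous cells, rose by 3.45 ± 0.21, Bpifb1, a secreted airway protein, by 3.33 ± 0.20, and Muc4, a membrane mucin, by 3.07 ± 0.29. Gcnt3, an enzyme that branches mucin glycans, was at least 1.82-fold higher (limma adjusted p = 1.7e-07), with 0 control arrays above background, but not called with normexp (log2 difference 0.35, adjusted p = 0.068).

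Epithelial markers moved in different directions. Of the 14 measured keratins and related genes of basal and injured epithelium, 6 rose and 0 fell. Krt14, a basal cell keratin, read -4.997, -3.86 and -3.49 with Mitsui-7 and -6.77, -6.32 and -5.54 on the controls, without overlap (log2 difference 2.26 ± 0.26, limma adjusted p = 4.7e-07), and Krt17, a keratin of stressed epithelium, was at least 3.05-fold higher (limma adjusted p = 4.7e-09). Of the 10 measured club cell genes 2 rose and 5 fell. Beside Muc5b, which that list shares, the riser was Scgb3a2, a secretoglobin (log2 difference 0.48 ± 0.10), while Cyp2f4, a cytochrome P450 typical of club cells, fell by 0.74 ± 0.11 and Aldh1a1, a retinal dehydrogenase, by 0.66 ± 0.12. The fall of Scgb1a1, the defining club cell secretoglobin, was small (log2 difference -0.24 ± 0.08, limma adjusted p = 0.028) and not called without control replicate 6 (0.063) or without any of 3 other single arrays. Without Mitsui-7 replicate 5, 3 of the club cell genes fell.

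Genes of the thin alveolar type 1 cell fell in 7 of 12 cases and 0 rose (median log2 difference -0.33). Aqp5, a water channel of these cells, read 2.94, 3.05 and 3.29 on the Mitsui-7 arrays, against 3.34, 3.53 and 3.60 on the controls. The highest Mitsui-7 array was just under the lowest control (log2 difference -0.41 ± 0.08, limma adjusted p = 0.00033). Cav1, caveolin of type 1 and endothelial cells, fell by 0.61 ± 0.08 (limma adjusted p = 3.3e-06). Of the 14 type 2 cell genes 3 rose and 0 fell, with a median of 0.15. Without Mitsui-7 replicate 5 the count was 1 and without Mitsui-7 replicate 6 it was 5. Of the 23 measured genes of motile cilia 8 rose and 2 fell. Foxj1, the regulator of ciliated cells, read -0.31, -0.08 and 0.16 with Mitsui-7, against -0.97, -0.76 and -0.67 on the controls (log2 difference 0.67 ± 0.11, limma adjusted p = 6.6e-05). Dnah9, a dynein heavy chain, and Tppp3, a tubulin-binding protein, fell by 0.40 ± 0.12 and 0.33 ± 0.10. Each was not called without 1 array, Dnah9 without control replicate 2 and Tppp3 without Mitsui-7 replicate 4. Other probes for Foxj1 and Dnah9 had the opposite sign and were not called.

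Of 16 macrophage and monocyte markers 8 rose, 0 fell and 8 did not pass, the last with log2 differences from -0.24 to 0.64. The median was 0.54, and the mean over the list ran from 0.24 to 0.70 on the Mitsui-7 arrays and from -0.13 to 0.12 on the controls, relative to the control mean. Itgam, the CD11b integrin of myeloid cells, read -0.58, -0.24 and 0.18 with Mitsui-7, against -2.91, -2.39 and -1.58 on the controls, where the highest control was replicate 6 (log2 difference 2.14 ± 0.21, limma adjusted p = 5.7e-08). Cd68, a lysosomal macrophage protein, rose by 0.93 ± 0.18 with overlapping ranges. Of the 12 alveolar macrophage genes, by contrast, 2 rose and 3 fell. The risers were Fabp4 and Atp6v0d2, a proton pump subunit (adjusted p = 0.068 without control replicate 6 with limma, and also not called without any of 4 other single arrays), and the fallers Rnase3, Car4 and Krt79, a keratin not called without any of 10 single arrays.

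Lysosomal and lipid-handling genes followed, with 24 of 38 higher and 1 lower (Pla2g15, a lysosomal phospholipase, not called without any of 4 single arrays), a median of 0.37, and 20 higher without control replicate 6. Ctsk, a collagen-degrading cathepsin, read 1.75, 2.40 and 2.94 on the Mitsui-7 arrays and -1.11, -0.86 and -0.10 on the controls. No array overlapped (log2 difference 3.05 ± 0.28, limma adjusted p = 9.3e-09). Fabp4, a fatty acid carrier of macrophages and adipocytes, rose by 3.15 ± 0.30, and Pla2g7, a lipoprotein-associated phospholipase, by 2.56 ± 0.19. Trem2, a lipid receptor of macrophages, read 0.82, 1.95 and 2.29 against -0.08, 0.23 and 1.02 on the controls, with some overlap (log2 difference 1.66 ± 0.26, limma adjusted p = 4.3e-05).

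The matrix genes that rose were mainly matricellular proteins and proteinases, with smaller shifts in collagens. Of 19 matricellular and crosslinking genes 9 rose and 0 fell. Beside Spp1 they included Tnn, tenascin N (log2 difference 2.37 ± 0.40), Thbs2, thrombospondin 2 (2.17 ± 0.21), and Ccn4, a WNT-induced matrix protein (1.56 ± 0.25). Of 17 metalloproteinases and inhibitors 6 rose and 1 fell. Mmp12, the macrophage elastase, read 0.14, 0.46 and 0.87 on the Mitsui-7 arrays, against -4.07, -3.15 and -2.78 on the controls, and the groups were widely apart (log2 difference 3.65 ± 0.27, limma adjusted p = 2.7e-10). Mmp7, matrilysin of injured epithelium, read -2.80, -2.25 and -0.94 against -9.09, -6.34 and -3.38 on the controls (log2 difference 4.30 ± 0.69, and 3.88 without control replicate 6, the lowest control). Mmp3, stromelysin, was at least 3.17-fold higher (limma adjusted p = 2.9e-08). Of the tissue inhibitors, Timp1 rose by 1.11 ± 0.10 while Timp3 fell by 0.33 ± 0.09.

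Of 17 collagen genes 8 rose and 1 fell, with a median of 0.16. Col1a1, a chain of the main fibrillar collagen, read 2.35, 3.61 and 3.73 with Mitsui-7, against 1.495, 2.89 and 3.37 on the controls. The ranges overlapped, and the difference was 0.59 ± 0.13 log2 units (limma adjusted p = 0.0014). Col3a1, the fibrillar collagen of soft tissue, rose by 0.51 ± 0.08 and Col16a1, a fibril-associated collagen, by 0.80 ± 0.10. The 1 that fell was Col12a1, another fibril-associated collagen (log2 difference -0.34 ± 0.11), which was not called without any of 3 single Mitsui-7 arrays (replicates 3, 4 and 5).

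**Figure D2:**
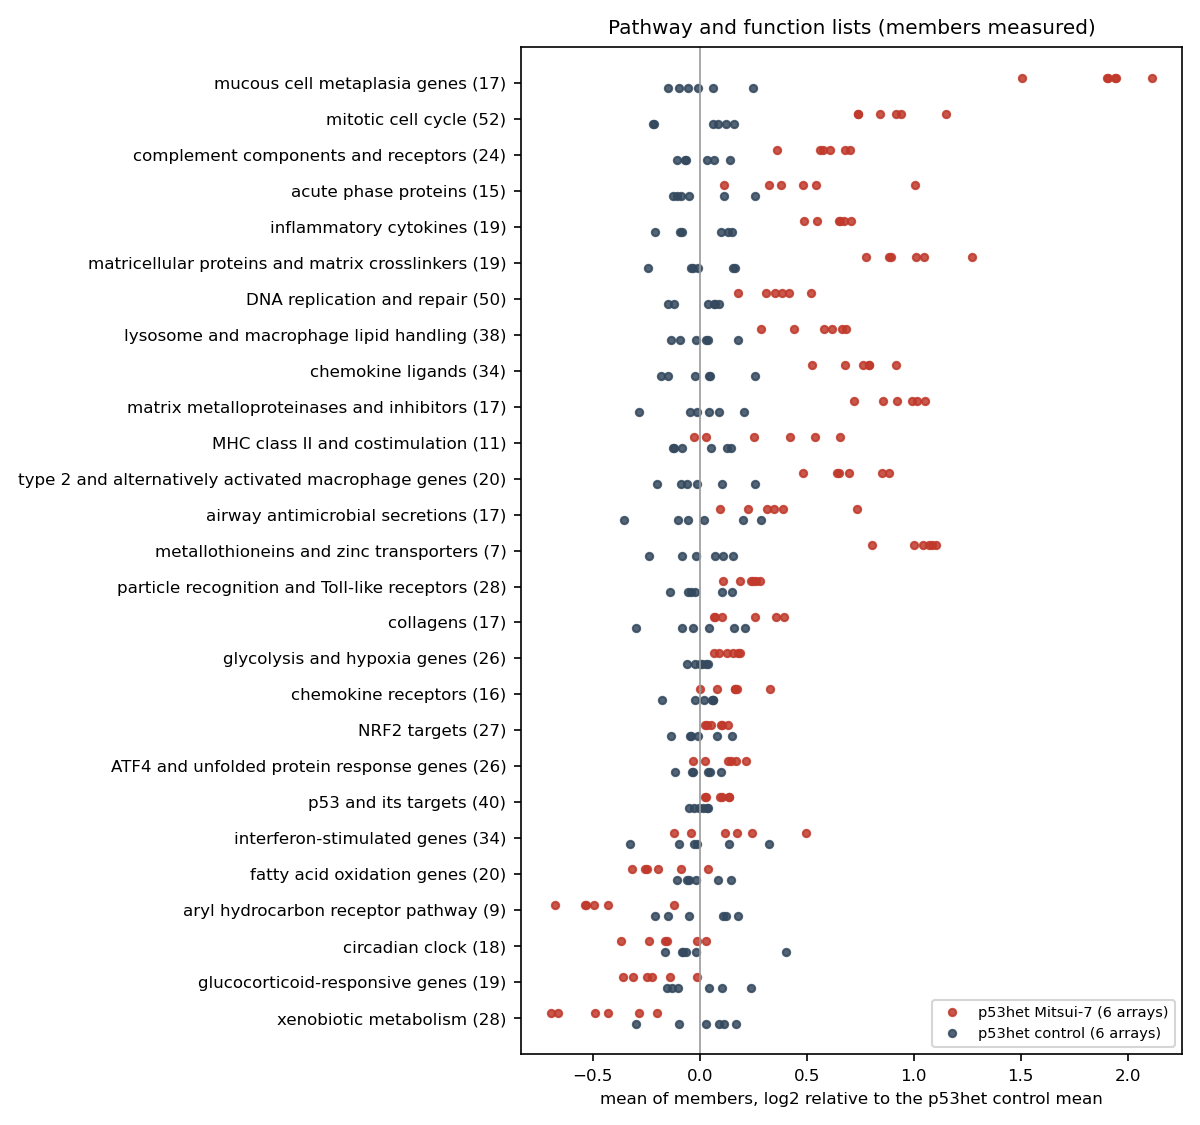
Mean of the measured members of each pathway or function list on each array, in log2 units relative to the p53het control mean, with the number of members in brackets. Each point is 1 array, red for p53het Mitsui-7 and dark for p53het control, and lists are ordered by their median difference. The mucous list lies at 1.51 to 2.11 on the Mitsui-7 arrays and -0.15 to 0.25 on the controls, the mitotic list at 0.74 to 1.15 and -0.22 to 0.16, and the interferon-stimulated list overlaps.

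Chemokine ligands rose in 16 of 34 cases and fell in 4 (median 0.31), against 8.91% of all genes higher and 13.9% lower. Those that rose most attract monocytes and activated T cells. Ccl7, a monocyte attractant, read -2.13, -0.53 and 0.13 on the Mitsui-7 arrays and -4.05, -3.82 and -3.41 on the controls. All Mitsui-7 arrays were higher (log2 difference 3.01 ± 0.32, limma adjusted p = 1.3e-07). Ccl12, another CCR2 ligand, rose by 2.51 ± 0.39. Cxcl10, an interferon-induced CXCR3 ligand, read -2.03, -1.65 and -0.57 with Mitsui-7, against -4.50, -4.26 and -3.65 on the controls (log2 difference 2.70 ± 0.32, limma adjusted p = 8.9e-07). Ccl24, an eosinophil attractant, rose by 1.24 ± 0.23 and Pf4, platelet factor 4, by 1.08 ± 0.15. The ligands that fell were Ccl6, a myeloid chemokine of rodents (-0.63 ± 0.17), Ccl21, which guides lymphocytes to lymph vessels and nodes (-0.62 ± 0.09), Ccl5, a T cell product (-0.55 ± 0.17), and Cxcl14, an epithelial chemokine (-0.60 ± 0.21), as log2 differences. Cxcl14 was not called without any of 8 single arrays, nor Ccl5 without Mitsui-7 replicate 4, and 2 ligands fell without that array. Of the 16 measured chemokine receptors 1 was called, Ccr1, the receptor of several monocyte attractants, which rose by 0.96 ± 0.17.

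Of 19 measured cytokine genes 6 rose and 2 fell, against 8.91% and 13.9% of all genes. The list median was 0.49, or 0.06 with normexp background correction. Il1rn, the antagonist of interleukin-1, read 1.98, 2.02 and 2.27 on the Mitsui-7 arrays, against -0.53, -0.15 and 0.13 on the controls, and both groups were tight (log2 difference 2.30 ± 0.14, limma adjusted p = 2.6e-12). Csf1, the growth factor of macrophages, rose by 0.66 ± 0.11. Both that fell are interleukin-1 family alarmins: Il1a by 0.64 ± 0.13 and Il33 by 0.41 ± 0.08. Among 20 type 2 and alternatively activated macrophage genes 7 rose and 1 fell. Retnla, a resistin-like protein of such macrophages and of epithelium, read 2.31, 3.10 and 3.66 with Mitsui-7 and -1.001, -0.22 and 1.54 on the controls. The highest control was replicate 6, still below every Mitsui-7 array (log2 difference 3.22 ± 0.35, limma adjusted p = 3.1e-07). Chia, acidic chitinase, rose by 2.05 ± 0.14, and Cd5l, a secreted macrophage protein, was at least 3.83-fold higher, with 5 Mitsui-7 arrays and 0 control arrays above background. The gene that fell was Il4r, a receptor chain for IL-4 and IL-13 (log2 difference -0.58 ± 0.12).

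Complement genes moved in 1 direction, with 15 of 24 higher, 0 lower and a median of 0.50. C6, a part of the membrane attack complex, read -2.68, -2.19 and -1.64 on the Mitsui-7 arrays, against -4.93, -4.02 and -3.65 on the controls, with no overlap (log2 difference 2.07 ± 0.28, limma adjusted p = 5.3e-06). C9, the pore-forming part of that complex, rose by 1.65 ± 0.16, Cfi, the protease that inactivates C3b, by 1.42 ± 0.22, and C3ar1, the receptor for C3a, by 1.14 ± 0.13. Of 15 acute phase genes 8 rose and 1 fell. A2m, a broad proteinase inhibitor, read -4.02, -3.40 and -2.43 against -7.63, -6.42 and -5.99 on the controls (log2 difference 3.04 ± 0.22, limma adjusted p = 1.1e-10). Serpina3n, another proteinase inhibitor, rose by 1.99 ± 0.22 and Hp, haptoglobin, by 0.80 ± 0.10, while Serpina1, the inhibitor of neutrophil elastase, fell by 1.24 ± 0.24 (limma adjusted p = 0.00041). Another probe for Serpina3n gave a log2 difference of 0.45.

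Of 28 genes for particle recognition, Toll-like receptors and the inflammasome, 7 rose and 3 fell. Clec4e, a C-type lectin of macrophages, was at least 1.78-fold higher (limma adjusted p = 0.00017), with 5 Mitsui-7 arrays and 0 control arrays above background. With normexp background correction Clec4e was not called, at a log2 difference of 0.24 that lies under this bound (adjusted p = 0.27), and 5 genes of the list rose and 1 fell. Fcgr2b, the inhibitory Fc receptor, rose by 0.94 ± 0.18 and Tlr2, a receptor for microbial lipoproteins, by 0.80 ± 0.14. Fcgr3a, an activating Fc receptor (-0.59 ± 0.16), Nfkbia, the inhibitor of NF-kappaB (-0.39 ± 0.14), and Icam1, an adhesion molecule, fell. The call for Nfkbia was lost without any of 7 single arrays, and both Nfkbia and Icam1 were not called with normexp (adjusted p = 0.063 and 0.060).

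Lymphoid markers divided by cell type. Plasma cell genes rose in 6 of 12 cases and 0 fell. Jchain, which joins polymeric immunoglobulins, read 1.78, 2.25 and 3.10 on the Mitsui-7 arrays, against 0.14, 0.98 and 1.41 on the controls. The lowest control was replicate 6, and the log2 difference was 1.42 ± 0.31 with it and 1.30 without it (limma adjusted p = 0.0014 and 0.0038). Tnfrsf17, the BCMA receptor of plasma cells, rose by 1.32 ± 0.30, Mzb1, an immunoglobulin chaperone, by 0.93 ± 0.24 and Irf4, a transcription factor of plasma cells, by 0.84 ± 0.12. Of 13 B cell genes, on the other hand, 0 rose and 5 fell (median -0.33). Bank1, a B cell receptor adaptor, read -4.78, -4.45 and -3.86 with Mitsui-7 and -4.45, -3.37 and -2.85 on the controls, with overlapping ranges (log2 difference -1.03 ± 0.20, limma adjusted p = 0.00043). The B cell count was 3 without any of 4 single arrays (Mitsui-7 replicates 2 and 5, control replicates 4 and 5). Cd86, a costimulatory molecule of antigen-presenting cells, rose by 1.45 ± 0.17 together with 5 others of 11 measured class II and costimulation genes. Without Mitsui-7 replicate 5, 3 of that list rose.

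Cytotoxic cell genes went both ways, with 3 of 16 higher and 6 lower. Cst7, cystatin F of cytotoxic and myeloid cells, rose by 1.16 ± 0.17, while Gzmb, granzyme B, fell by 0.74 ± 0.19 and Prf1, perforin, by 0.67 ± 0.17. The count of falls was 2 to 3 without any of 7 single arrays, control replicate 6 among them (3). Of 18 T cell genes 3 rose and 1 fell (3 without Mitsui-7 replicate 2 or control replicate 4, 2 without control replicate 6): Il2ra, the IL-2 receptor chain of activated and regulatory T cells, by 1.05 ± 0.14, Icos, a costimulatory receptor, and Cd4, against Cd8a (-0.46 ± 0.12). Another probe for Il2ra gave a log2 difference of 0.06. Mast cell genes rose in 6 of 11 cases, among them Mcpt2, a mast cell protease (log2 difference 1.51 ± 0.34), while Kit, the stem cell factor receptor of mast cells, fell by 0.55 ± 0.12. That count was 1 without Mitsui-7 replicate 5, 2 without control replicate 5 and 3 without any of 4 others (Mitsui-7 replicates 3 and 4, control replicates 2 and 3), and 3 with normexp background correction. Few granulocyte markers were called. Of 16 neutrophil genes Mmp9, a gelatinase, rose by 1.33 ± 0.33 (0.25 with normexp background correction, limma adjusted p = 0.33) and Fpr1, a formyl peptide receptor, fell by 1.18 ± 0.17, and 14 did not pass, their log2 differences running from -1.09 to 0.68. Of 6 eosinophil genes 0 were called, with differences from -0.69 to 0.38.

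**Figure D3:**
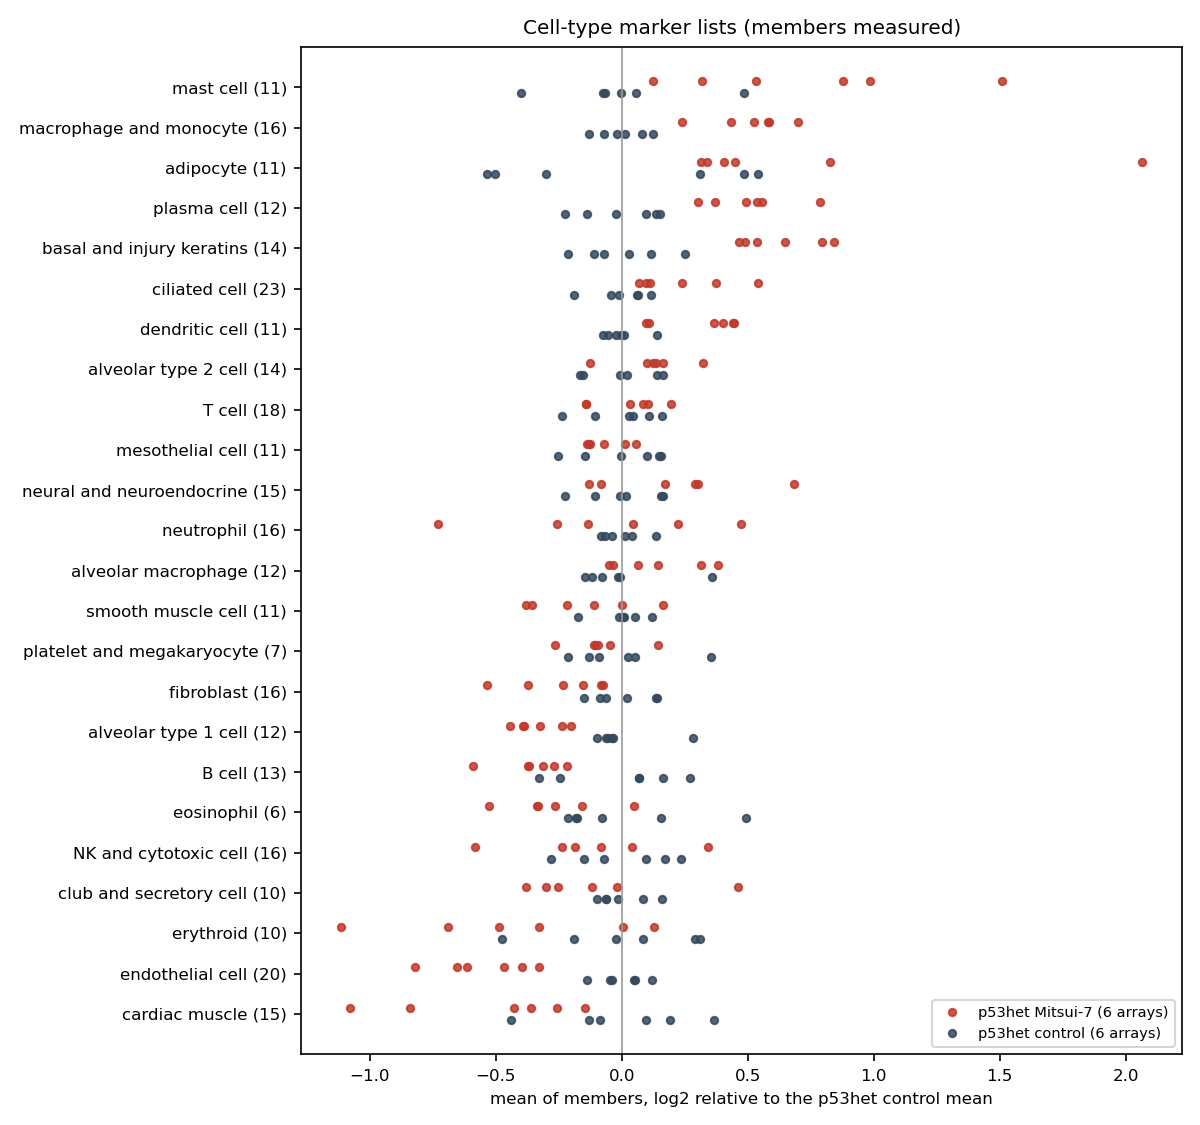
Mean of the measured members of each cell type marker list on each array, in log2 units relative to the p53het control mean, with the number of members in brackets. Each point is 1 array, red for p53het Mitsui-7 and dark for p53het control, and lists are ordered by their median difference. The endothelial list lies at -0.82 to -0.33 on the Mitsui-7 arrays and -0.14 to 0.12 on the controls, and the macrophage list at 0.24 to 0.70 and -0.13 to 0.12.

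Endothelial genes fell. Of 20 endothelial markers 14 fell and 0 rose, with a median of -0.56 against -0.05 over all genes, and the count was also 14 without control replicate 6. Ramp2, a partner of the adrenomedullin receptor, read 1.02, 1.17 and 1.49 on the Mitsui-7 arrays, against 1.89, 2.02 and 2.20 on the controls. No array overlapped (log2 difference -0.82 ± 0.09, limma adjusted p = 3.1e-07). Tek, the angiopoietin receptor, fell by 0.82 ± 0.09, Eng, a TGF-beta co-receptor, by 0.89 ± 0.15, and Cldn5, the tight junction protein of endothelium, by 0.85 ± 0.12. Car4, a carbonic anhydrase of lung capillaries, read 1.17, 1.65 and 1.88 against 2.02, 2.39 and 2.62 on the controls (log2 difference -0.75 ± 0.11, limma adjusted p = 1.9e-05). Genes of cardiac muscle, which in rodents sheathes the pulmonary veins, fell in 10 of 15 cases. Myh6, the alpha myosin heavy chain, read 0.34, 1.21 and 1.38 with Mitsui-7 and 1.60, 2.06 and 2.36 on the controls, again without overlap (log2 difference -1.04 ± 0.25, limma adjusted p = 0.0031). Mybpc3, a sarcomere protein, fell by 1.03 ± 0.22. The mean over the cardiac list ran from -1.08 to -0.15 on the Mitsui-7 arrays and from -0.44 to 0.37 on the controls, with overlap, and its part in the other falls was not tested. The 1 cardiac gene that rose was Nppb, the precursor of B-type natriuretic peptide, which was at least 3.31-fold higher with 5 Mitsui-7 arrays and 0 controls above background (limma adjusted p = 3.6e-07). Fibroblast genes fell in 6 of 16 cases and rose in 1, led by Inmt, a methyltransferase of lung stroma (log2 difference -1.54 ± 0.29), with 3 falls without Mitsui-7 replicate 5.

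Of 11 measured mesothelial genes 1 rose and 4 fell. The riser was Msln, mesothelin, a surface protein of mesothelial cells and of several tumours, which read 1.74, 2.05 and 2.26 on the Mitsui-7 arrays, against 0.52, 0.90 and 1.28 on the controls. The groups were apart (log2 difference 1.07 ± 0.11, limma adjusted p = 1e-07). Bnc1, a transcription factor of mesothelium, read -4.97, -4.34 and -4.16 with Mitsui-7 and -4.07, -3.82 and -3.66 on the controls, and fell by 0.57 ± 0.16. Another probe for Bnc1 gave -0.10, and with the mean over its probes Bnc1 was not called (-0.33, limma adjusted p = 0.16). Gpm6a, Prg4 and Rspo1 were the others that fell, Rspo1 not without any of 3 single arrays.

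Genes of mitosis rose together. Of 52 measured members 43 rose and 2 fell (median 1.01), 43 and 2 without control replicate 6, and the groups did not overlap for 30 of them, against 5% of all genes. With normexp background correction 35 rose, with a median of 0.55. Aurkb, a kinase of chromosome segregation, rose by 2.04 ± 0.36, Melk, a mitotic kinase, by 1.80 ± 0.22, and E2f8, an E2F-family repressor, by 1.74 ± 0.24. Ccne1, cyclin E1 of the entry into S phase, read -3.37, -3.21 and -2.71 on the Mitsui-7 arrays, against -5.21, -4.73 and -3.93 on the controls. All Mitsui-7 arrays were higher (log2 difference 1.65 ± 0.15, limma adjusted p = 9.3e-09). The 2 that fell were Cdc25b, a phosphatase that activates CDK1 (-0.40 ± 0.13), and Ccnd1, cyclin D1 (-0.25 ± 0.07). The call for Cdc25b was lost without any of 5 single arrays and that for Ccnd1 without Mitsui-7 replicate 4. Of 50 genes of DNA replication and repair 26 rose and 1 fell (22 and 2 without control replicate 6), with a smaller median of 0.38, or 0.17 with normexp. Cdc6, which loads the replicative helicase, rose by 1.42 ± 0.24 (0.25 with normexp background correction, limma adjusted p = 0.16), and Rrm2, a subunit of ribonucleotide reductase, by 1.09 ± 0.15, and Bard1, the partner of BRCA1, rose too. The 1 that fell was Xrcc5, Ku80 of double-strand break joining, which read 2.09, 2.48 and 2.60 with Mitsui-7 and 2.62, 2.95 and 3.22 on the controls (log2 difference -0.60 ± 0.10).

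Because genes of mitosis moved together, their promoters were searched for a pair of motifs known from cell cycle genes, the CHR element (TTTGAA) and the CCAAT box (CCAAT), on both strands of the 300 bases that RefSeq's rat genome (build GRCr8) gives around each start, 250 before and 50 after. Of 52 measured members 41 had a promoter sequence, and 26 of these (63.4%) held the CHR letters, against 18.1% of all 27456 promoters. CCAAT was found in 29 (70.7%), against 37.7% of all promoters, and both in 20 (48.8%), against 7.25%. In the replication and repair list 4 of 42 promoters (9.52%) held the CHR letters and 23 (54.8%) CCAAT. The promoters of the 4 called mitotic genes with the largest change among those holding a CHR match are shown, 5′ to 3′ on the gene's strand, with matches to either motif in capitals (ATTGG is CCAAT on the opposite strand). They lie at chr2:111966577-111966876 (minus strand) for Ect2, a cytokinesis exchange factor, chr13:84255549-84255848 (minus) for Nuf2 and chr3:74396669-74396968 (minus) for Spc25, both of the NDC80 kinetochore complex, and chr20:19265043-19265342 (plus) for Cdk1, the mitotic kinase.
Ect2: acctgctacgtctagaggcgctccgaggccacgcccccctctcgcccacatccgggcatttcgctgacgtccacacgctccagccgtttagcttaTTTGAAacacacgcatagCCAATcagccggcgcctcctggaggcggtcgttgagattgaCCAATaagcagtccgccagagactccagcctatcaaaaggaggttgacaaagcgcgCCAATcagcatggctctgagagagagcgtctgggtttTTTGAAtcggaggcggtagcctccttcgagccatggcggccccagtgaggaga
Nuf2: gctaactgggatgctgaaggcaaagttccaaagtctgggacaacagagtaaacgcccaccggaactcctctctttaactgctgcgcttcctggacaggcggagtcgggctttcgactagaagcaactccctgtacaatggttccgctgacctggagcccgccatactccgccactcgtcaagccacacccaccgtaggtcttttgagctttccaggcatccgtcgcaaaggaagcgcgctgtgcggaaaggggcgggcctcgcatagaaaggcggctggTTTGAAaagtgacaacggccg
Spc25: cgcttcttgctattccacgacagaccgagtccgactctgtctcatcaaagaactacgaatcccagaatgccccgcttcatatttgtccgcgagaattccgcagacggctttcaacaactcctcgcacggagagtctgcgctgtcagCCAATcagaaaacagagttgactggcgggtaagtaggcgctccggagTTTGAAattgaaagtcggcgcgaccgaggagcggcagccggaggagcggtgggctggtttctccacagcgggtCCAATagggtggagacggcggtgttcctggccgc
Cdk1: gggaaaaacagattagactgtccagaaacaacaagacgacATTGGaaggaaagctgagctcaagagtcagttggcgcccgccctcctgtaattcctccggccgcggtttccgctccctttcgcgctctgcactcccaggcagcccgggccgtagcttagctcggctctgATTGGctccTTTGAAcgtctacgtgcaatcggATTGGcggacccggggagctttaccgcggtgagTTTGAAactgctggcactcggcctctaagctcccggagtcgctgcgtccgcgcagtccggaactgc
The log2 differences of these genes were 1.37 ± 0.17 for Ect2, 1.35 ± 0.19 for Nuf2, 1.30 ± 0.18 for Spc25 and 1.29 ± 0.16 for Cdk1. The Nuf2 window held a CHR match and no CCAAT, while the other 3 held both. A match describes the letters only.

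Targets of p53 showed no common shift. Of 40 measured members 8 rose, 3 fell and 29 did not pass, and the median was 0.00. Cdkn1a, which encodes the cell cycle inhibitor p21, read 0.80, 0.92 and 1.19 on the Mitsui-7 arrays, against -0.11, 0.37 and 0.56 on the controls. All Mitsui-7 arrays were above the highest control (log2 difference 0.70 ± 0.09, limma adjusted p = 7.1e-06). Sfn, 14-3-3 sigma of the G2 checkpoint, read -2.49, -1.97 and -1.44 with Mitsui-7 and -3.97, -3.79 and -3.72 on the controls (log2 difference 1.90 ± 0.19, limma adjusted p = 4.3e-08). Ckap2, a mitotic spindle protein, rose by 1.12 ± 0.17 and Pmaip1, the death factor NOXA, by 0.52 ± 0.12. Gadd45a, a growth arrest gene, fell by 0.49 ± 0.08, Mdm4, an inhibitor of p53, by 0.30 ± 0.07, and Ddb2, a sensor of ultraviolet damage, by 0.31 ± 0.10, the last not called without any of 5 single arrays. With the mean over its probes Mdm4 was not called (log2 difference -0.18, limma adjusted p = 0.11). Mdm2, the ubiquitin ligase that degrades p53, read -0.95, -0.74 and -0.42 against -1.05, -0.83 and -0.61 on the controls, with a difference of 0.03 ± 0.07 (limma adjusted p = 0.80).

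Among genes of oxidative stress and detoxification, 4 of 27 NRF2 targets rose, 6 fell and 17 did not pass. Over all genes the shares were 8.91% higher and 13.9% lower. Slc7a11, the cystine importer that feeds glutathione synthesis, read -4.00, -3.50 and -3.24 on the Mitsui-7 arrays, against -8.01, -6.45 and -6.05 on the controls. Its groups were far apart (log2 difference 3.22 ± 0.29, limma adjusted p = 9.3e-09). The risers also included Tkt, transketolase, and Hmox1, heme oxygenase (0.40 ± 0.15). Hmox1 was not called without any of 7 single arrays, control replicate 6 among them (limma adjusted p = 0.0998). Glutathione S-transferases were among those that fell. Gsta3 read -4.94, -4.49 and -3.88 with Mitsui-7 and -3.86, -3.17 and -2.74 on the controls (log2 difference -1.11 ± 0.20, limma adjusted p = 0.00025). Gsta1 fell by 0.72 ± 0.09 and Gsta4 by 0.63 ± 0.09. Mt2A, a widespread metallothionein, rose by 0.59 ± 0.10, and Slc39a2, a zinc importer, fell by 0.66 ± 0.18, the others of 7 in that list being Mt3 and 4 that did not pass.

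The antioxidant response element, at which NRF2 binds, was searched as TGACNNNGC on both strands, and 8 of 22 promoters of NRF2 targets (36.4%) held it, against 12.2% of all promoters. The windows of the 2 called genes with the largest change that held a match, both of which fell, are shown with the match in capitals: Gsta3 at chr9:31154739-31155038 (plus strand) and Gsta1 at chr9:31216483-31216782 (minus strand).
Gsta3: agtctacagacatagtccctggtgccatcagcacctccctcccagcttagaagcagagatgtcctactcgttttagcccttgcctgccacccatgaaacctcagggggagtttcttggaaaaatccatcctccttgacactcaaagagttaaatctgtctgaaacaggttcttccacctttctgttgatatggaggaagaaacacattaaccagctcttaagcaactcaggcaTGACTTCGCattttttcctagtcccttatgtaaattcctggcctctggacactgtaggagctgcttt
Gsta1: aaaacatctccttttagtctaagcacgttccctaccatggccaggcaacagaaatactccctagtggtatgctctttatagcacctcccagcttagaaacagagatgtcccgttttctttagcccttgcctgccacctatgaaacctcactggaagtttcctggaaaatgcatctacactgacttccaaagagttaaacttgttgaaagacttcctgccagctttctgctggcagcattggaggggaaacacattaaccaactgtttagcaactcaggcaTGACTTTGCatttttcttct
Both matches lay within 31 bases of the annotated start, 17 bases before it in Gsta3 and 31 after it in Gsta1.

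Of 28 xenobiotic metabolism genes 16 fell and 2 rose (median -0.43). Beside Cyp2a3, the largest falls were those of Aox1, aldehyde oxidase (-1.29 ± 0.31), Fmo2, the lung flavin monooxygenase (-0.97 ± 0.22), and Cyp2e1, the ethanol-metabolising cytochrome P450 (-0.91 ± 0.19). Fmo1, a related monooxygenase, read 1.15, 1.37 and 1.87 on the Mitsui-7 arrays, against 1.92, 2.29 and 2.53 on the controls. The ranges met without overlap (log2 difference -0.89 ± 0.14, limma adjusted p = 6.7e-05). Paox, a polyamine oxidase (0.41 ± 0.07), and Ugt1a6, a glucuronosyltransferase (0.35 ± 0.10), rose, although another probe for Ugt1a6 had the opposite sign and was not called. Cyp1a1, the best known target of the aryl hydrocarbon receptor, was not above background on any Mitsui-7 array and on 4 of 6 control arrays, and was at least 1.67-fold lower. Its limma adjusted p was 0.024 with all arrays and over the threshold without any of 5 single arrays, up to 0.074, and it was 0.22 with normexp background correction. Of 19 glucocorticoid-responsive genes 8 fell and 1 rose. Klf15, a transcription factor induced by glucocorticoids, fell by 0.73 ± 0.20, Klf9, another of that family, by 0.50 ± 0.12 and Nr3c2, the mineralocorticoid receptor, by 0.48 ± 0.13. The riser was Lcn2, lipocalin of neutrophils and stressed epithelium (0.75 ± 0.21).

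Glycolysis and hypoxia genes rose in 11 of 26 cases and fell in 3. Of 26 ATF4 and unfolded protein response genes 5 rose and 3 fell, and of 20 fatty acid oxidation genes 1 rose and 4 fell. Over all genes 8.91% rose and 13.9% fell. Angptl4, an inhibitor of lipoprotein lipase, rose by 1.41 ± 0.29 against the fall of Ucp3 and of Ppargc1a, a coactivator of mitochondrial genes (-0.91 ± 0.23, and -0.28 with normexp, limma adjusted p = 0.11). Airway antimicrobial genes rose in 7 of 17 cases and fell in 3, or in 0 without Mitsui-7 replicate 5 and 1 without Mitsui-7 replicate 2 or 3 or control replicate 1. Slpi, an antiprotease of airway secretions, read -0.15, 0.47 and 0.62 with Mitsui-7 and -0.95, -0.56 and -0.38 on the controls (log2 difference 1.00 ± 0.24). Of 11 smooth muscle genes 0 rose and 3 fell. These were Mylk, a kinase of myosin light chains, Pln, phospholamban, and Myh11, smooth muscle myosin, whose call was lost without any of 8 single arrays, control replicate 6 among them (limma adjusted p = 0.061). Hemoglobin genes Hba-a2 and Hbb were the 2 of 10 erythroid genes that fell, Hba-a2 not without any of 6 single arrays, and the count was 1 to 5 over the 12 single arrays left out (5 without Mitsui-7 replicate 6).

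The same nanotube was given to WT rats, a comparison with its own 6 treated and 6 control arrays. There 5325 genes were called (21.8%), 3050 higher (12.5% of all genes) and 2275 lower (9.3%). The share of rises among them was 57.3%, 37.5% with each array scaled to its median and 33.2% in the authors' matrix. On WT Mitsui-7 replicate 5, 86.4% of spots were well above background, against 71.2% to 73.8% on the other WT Mitsui-7 arrays. In the fit with array weights it had the lowest weight, 0.28. Without this array 4377 genes were called in WT rats, 2314 higher and 2063 lower. The median WT log2 difference over all genes was then -0.0044, in place of 0.0352. Across all genes the p53het and WT log2 differences correlated at r = 0.799, and 95.9% of the genes called in p53het rats had the same sign in WT rats, against 74.7% of all genes. Genes are not independent replicates, and the comparisons share slide terms but no arrays. Called in both with the same direction were 3277 genes, 58.8% of the p53het calls and 61.5% of the WT calls. Spp1 differed by 6.59 ± 0.32 in p53het rats and 6.34 ± 0.32 in WT rats, and Mt3 by 5.73 ± 0.34 and 5.59 ± 0.34. Mitotic genes rose in 43 and 46 of 52 cases, and endothelial genes fell in 14 of 20 in each genotype.

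The difference between the p53het and the WT response was tested itself, gene by gene. After adjustment 0 genes passed with limma, while 1792 (7.33%) had an unadjusted p under 0.05. The 3 with the smallest p were Fam25a, a gene of little known function (difference of log2 differences 1.31, limma adjusted p = 0.082), Adgrd1, an adhesion G protein-coupled receptor (0.90, adjusted p = 0.082), and Ddx60, an interferon-induced helicase (-1.12, adjusted p = 0.15). Fam25a read -2.39, -1.78 and -0.96 in p53het rats with Mitsui-7, against -3.71, -3.48 and -3.27 in p53het controls (log2 difference 1.74 ± 0.17), whereas in WT rats it did not pass (0.43, adjusted p = 0.071 with limma). Single genes passed when arrays were left out, at most 2, and 26 passed with array weights, 7 of them positive and 19 negative. Cdkn1a differed by 0.70 in p53het and 0.72 in WT rats, and the test of that difference gave -0.02 (limma adjusted p = 0.99). For Mdm2 the values were 0.03 and 0.30, the WT one called (limma adjusted p = 0.0014), with a difference of -0.27 (unadjusted p = 0.0066, limma adjusted p = 0.50).

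**Figure D4:**
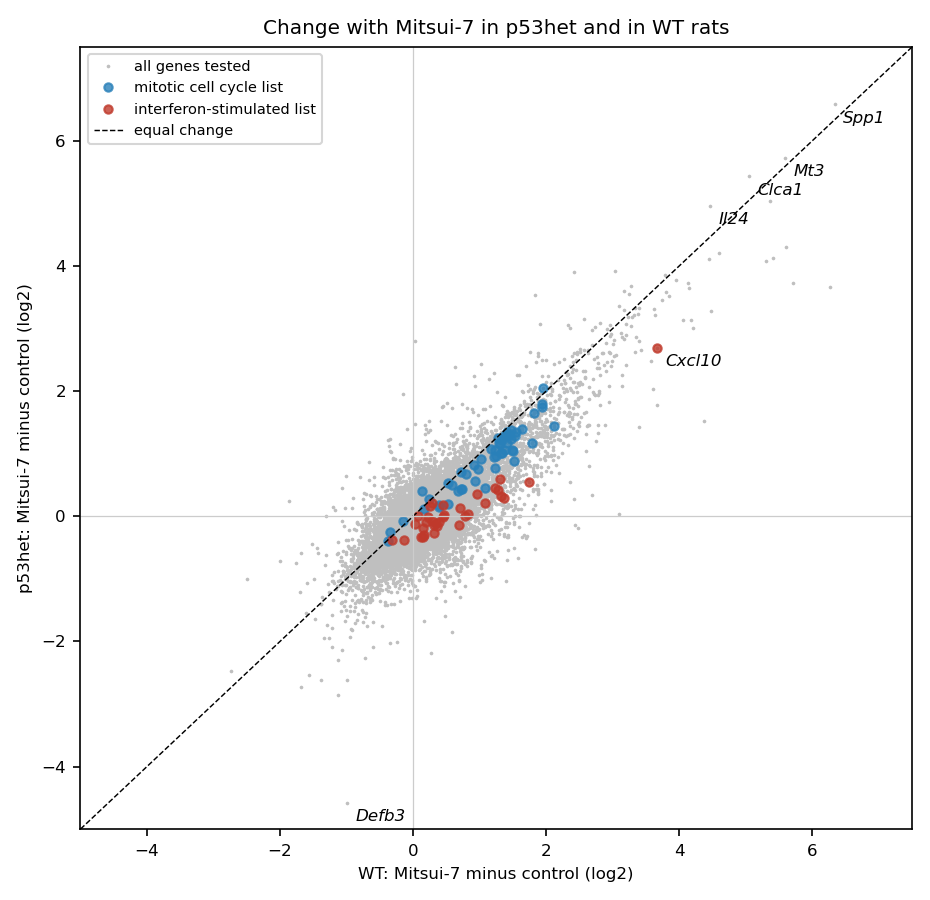
Log2 difference between Mitsui-7 and control in p53het rats (vertical axis) against the same in WT rats (horizontal axis), with 1 grey point per gene tested and a dashed line of equal change. Mitotic genes (blue) lie near the line, with 46 of 52 below the line (median difference between genotypes -0.18). All 34 interferon-stimulated genes (red) lie below the line (median -0.48, against -0.08 over all genes). Across all genes r was 0.799.

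Interferon-stimulated genes, the antiviral set that type I interferon induces, differed in count between the genotypes. In p53het rats 2 of 34 measured members rose and 4 fell, with a median of -0.01 (0.03 with each array scaled to its median). In WT rats 20 rose and 1 fell, with a median of 0.38, against 12.5% of all genes higher there, and 14 rose with each array scaled to its median. The difference between genotypes was negative for all 34 members (median -0.48, against -0.08 over all genes), and 23 of them had an unadjusted p under 0.05, against 7.33% of all genes. After adjustment over all genes 0 passed, and the lowest limma adjusted p was 0.30. Leaving out each of the 24 arrays in turn left 33 to 34 members negative and 17 to 25 with an unadjusted p under 0.05. With each array scaled to its median, 30 were negative and 13 had such a p. In the authors' matrix 21 of 25 were negative and 9 had such a p. Negative differences also prevailed in other lists, with 46 of 52 mitotic genes and 15 of 16 cytotoxic cell genes. In each of these 2 lists 5 genes had an unadjusted p under 0.05. Not all lists leaned this way, since 8 of 24 complement genes and 4 of 15 acute phase genes were negative. The share of all genes with a negative difference is not given here. The median difference over all genes depended on the processing. It was 0.04 with each array scaled to its median, -4e-04 with quantile normalization and -0.05 without WT Mitsui-7 replicate 5.

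Some uncalled members, chosen after their values were seen, show the gap in single genes. Mx1, an antiviral GTPase, had a log2 difference of 0.41 ± 0.18 in p53het rats (limma adjusted p = 0.11) and 1.27 ± 0.18 in WT rats (1.1e-05). Ifit3, which blocks viral RNA, had 0.29 ± 0.21 and 1.37 ± 0.21, and Zbp1, a sensor of nucleic acids, 0.55 ± 0.23 and 1.74 ± 0.23. The members called in p53het rats were Cxcl10 and Usp18, an inhibitor of interferon signalling, which rose, and Bst2, which tethers virions, Ifi35, not called without any of 4 single arrays, Ifih1, an RNA sensor, and Xaf1, a cofactor of cell death, which fell. Usp18 rose by 0.60 ± 0.21 and was not called without any of 7 single arrays, control replicate 6 among them (limma adjusted p = 0.087). Bst2 fell by 0.39 ± 0.11 and was not called without control replicate 2. The mean over the list ran from -0.12 to 0.50 (median 0.15) on the p53het Mitsui-7 arrays and from -0.33 to 0.32 (median -0.02) on the p53het controls, with overlap, and from 0.23 to 0.66 (median 0.47) on the WT Mitsui-7 arrays and from -0.46 to -0.05 (median -0.20) on the WT controls, without overlap. The median of the WT controls was thus below that of the p53het controls. Without control replicate 3, 4 members rose in p53het rats, without control replicate 6 or any of 6 other single arrays 1 rose, and 2 fell without Mitsui-7 replicate 4 or control replicate 2 or 3.

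**Figure D5:**
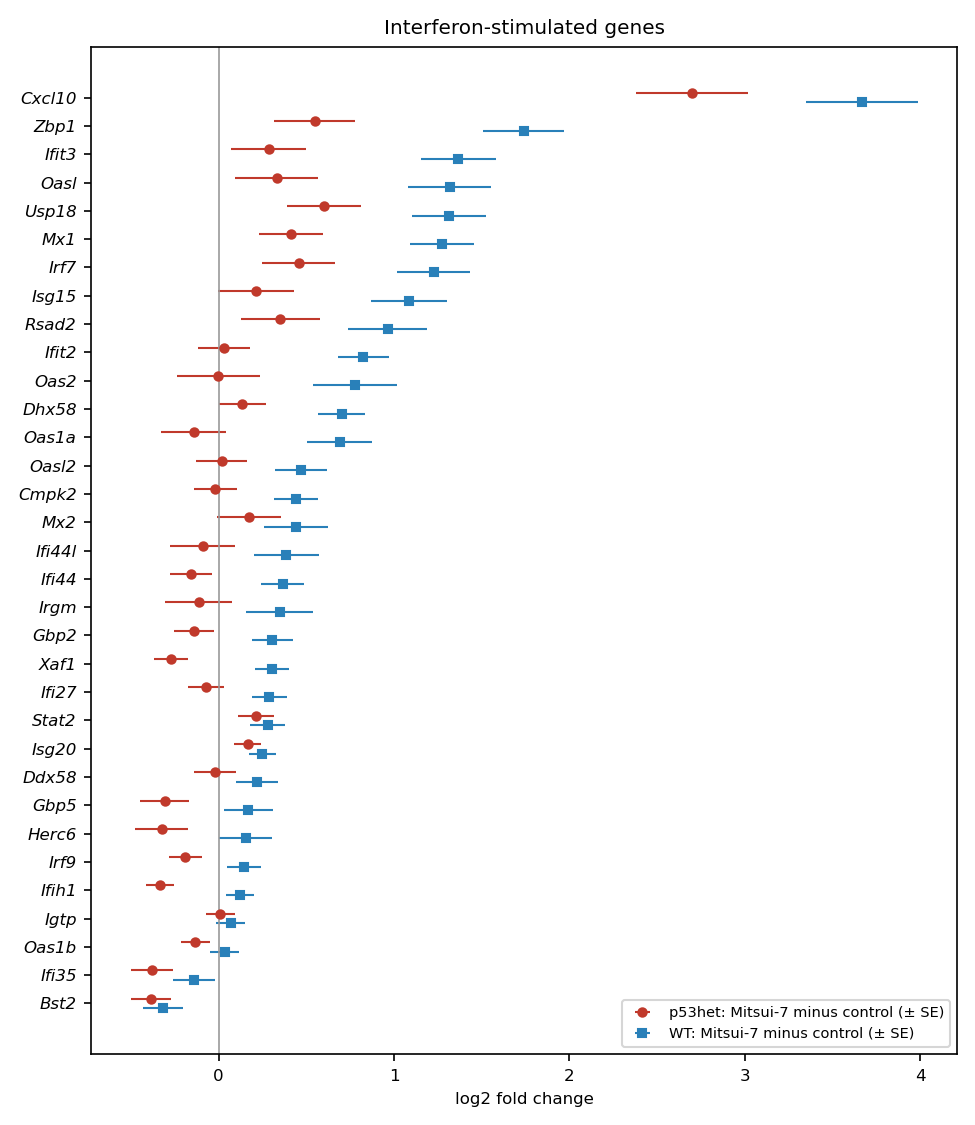
Log2 difference between Mitsui-7 and control (horizontal axis, ± SE) for 33 measured interferon-stimulated genes, red circles in p53het rats and blue squares in WT rats, ordered by the WT value. The WT value is the higher for each gene drawn, and Cxcl10 is the largest in both genotypes.

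The interferon-stimulated response element, the promoter element known from these genes, was searched by its core, GAAA and GAAA with any 2 bases between them, on both strands. It was found in 18 of 25 promoters of the list (72.0%), against 3.77% of all promoters. The windows of Cxcl10, at chr14:15988816-15989115 (plus strand), and Bst2, at chr16:18254918-18255217 (minus strand), are shown because they are the called members with the largest change in p53het rats that held a match, given in capitals. In Bst2 2 matches overlap.
Cxcl10: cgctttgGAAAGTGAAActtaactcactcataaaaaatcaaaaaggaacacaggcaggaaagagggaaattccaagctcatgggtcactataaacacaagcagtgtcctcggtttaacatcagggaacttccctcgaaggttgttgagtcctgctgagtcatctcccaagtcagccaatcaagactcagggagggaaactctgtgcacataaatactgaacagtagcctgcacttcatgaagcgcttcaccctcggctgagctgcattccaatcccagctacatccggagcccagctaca
Bst2: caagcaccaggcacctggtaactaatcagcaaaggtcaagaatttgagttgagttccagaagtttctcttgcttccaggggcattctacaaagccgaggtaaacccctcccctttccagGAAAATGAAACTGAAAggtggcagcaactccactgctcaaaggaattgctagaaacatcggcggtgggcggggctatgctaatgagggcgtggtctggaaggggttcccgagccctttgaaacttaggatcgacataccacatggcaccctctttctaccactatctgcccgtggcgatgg
Cxcl10 rose and Bst2 fell in p53het rats, although both windows hold the element.

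Ciliated cell genes also differed by genotype in count. Of 23, 8 rose and 2 fell in p53het rats with a median of 0.25, against 16 and 0 in WT rats with a median of 0.59. The difference was negative for 22 of 23 (median -0.29, against -0.08 over all genes). For 11 it had an unadjusted p under 0.05, against 7.33% of all genes, and none of them passed adjustment with limma. Leaving out each of the 24 arrays in turn left 21 to 23 members negative and 7 to 14 with an unadjusted p under 0.05. With each array scaled to its median, the median difference over all genes was 0.04. The counts of this list under that scaling are not given here. Dnai2, a dynein intermediate chain, rose by 0.42 ± 0.11 in p53het rats and had a log2 difference of 1.04 in WT rats (limma adjusted p for the gap 0.39). B cell genes had a median of -0.33 in p53het and 0.07 in WT rats. Of 13 gaps 3 had an unadjusted p under 0.05, against 7.33% of all genes. The mean over the B cell list had a median of -0.34 on the p53het Mitsui-7 arrays and 0.07 on the p53het controls, and of -0.27 on the WT Mitsui-7 arrays and -0.35 on the WT controls. The Mitsui-7 groups thus lay close together, and the WT controls below the p53het controls.

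NM-403 was given to p53het rats at the same dose and time, and its comparison shares the 6 p53het controls with that of Mitsui-7. For Mitsui-7 5578 genes were called and for NM-403 941 (3.85%), 544 higher (2.22% of all genes) and 397 lower (1.62%). The share of rises among the NM-403 calls was 57.8%, and 79.5% with each array scaled to its median. Without control replicate 2, 612 genes were called for NM-403. Between the nanotubes themselves 498 genes differed (2.04%), 361 higher (1.48% of all genes) and 137 lower (0.56%) with Mitsui-7. Spp1 read 2.89, 3.60 and 3.73 with Mitsui-7 and 0.95, 1.05 and 1.26 with NM-403 (log2 difference between them 2.43 ± 0.34, limma adjusted p = 5.4e-05). Mt3 differed by 4.07 ± 0.36, Clca1 by 3.35 ± 0.52, Il24 by 3.14 ± 0.31 and Mmp7 by 3.10 ± 0.73, all higher with Mitsui-7. Cdkn1a was higher by 0.73 ± 0.10 (limma adjusted p = 4.4e-05) and Msln by 1.03 ± 0.12 (2.7e-06), and neither was called for NM-403 against control. Orm1, an acute phase glycoprotein, went the other way: it read -7.16, -6.85 and -3.48 with Mitsui-7 with the highest just below the lowest NM-403 array, and -3.23, -2.47 and -2.06 with NM-403 (log2 difference -3.83 ± 0.47, limma adjusted p = 9.3e-06). Mitotic genes rose in 43 of 52 cases with Mitsui-7 and in 38 with NM-403, with medians of 1.01 and 0.92, endothelial genes fell in 14 and 5 of 20, and mucous genes rose in 12 and 8 of 17. These are counts against control, from 2 tests that called very different shares of all genes. Tested between the nanotubes themselves, 3 of 20 endothelial genes were lower with Mitsui-7. In that test 5 of 17 mucous genes and 1 of 52 mitotic genes were higher with Mitsui-7.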

How the data were processed

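RNA from 1 lung lobe per rat was hybridised to 1-colour Agilent arrays, 1 array per rat, which limits the precision to 6 arrays a group. The deposited scanner files hold, per the file headers, an intensity for each spot that was background-subtracted and detrended. The submitters' processing notes name Agilent Feature Extraction, version 12.0.1.1. The authors' deposited matrix of log2 values, centred on 0 per probe and with its normalization not given in the sources used here, served as an alternative only. Control spots were removed (58717 spots remained), log2 processed signals were set relative to the 75th percentile of each array, and spots of a probe were averaged. Each gene was represented by whichever of its probes was brightest on average, a choice for 5925 genes. Genes were kept if well above background on at least 5 arrays, leaving 24464. Of 265 genes picked out below, 63 have several probes and 8 have a probe of opposite sign, 0 of them called.

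All 35 arrays were fitted in limma 3.58.1 (R 4.3.3) with slide, from the file headers, as a block. p-values were adjusted over all genes. The fit was tested on simulated data with independent normal errors and 200 changed genes. It recovered 62.7% of 1.5-fold, 80.6% of 2-fold and 90.9% of 4-fold changes, with 3 false calls. No outlying array was simulated. A group not above background on any array has only a bound: the brighter group's mean against the higher, on each array, of the lowest signal above background and the dim probe's own. The members and gene lists were chosen with earlier results of these data known. Most genes named are part of those that a rule picks: the 12 largest rises and falls, at most 5 called members per list, any called member opposing its list's majority, the 3 of smallest p for the genotype difference, the 10 largest nanotube differences, and some genes always given. Outside the rule are Ect2, Nuf2, Spc25 and Cdk1, shown for their promoters, and Xaf1, Mx1, Ifit3 and Zbp1. The values of these genes with single arrays left out are not given. The labels do not pair same-numbered rats, whose deviations correlated at -0.487 to 0.177 (1 of 6 over 0.1). Alternatives covered slide, scan day, replicate block, samples in the fit, normalization, background, dim probes, probe choice, array weights and leaving out each array. The genotype comparison without each WT array was chosen after seeing the data. Promoters are RefSeq's, build GRCr8. Some results are not reported here.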

Additional observations from a re-analysis of the deposited data

Results flagged for a closer look

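Each group of 6 arrays was checked for a single array far from the others, for the 175 genes of the comparison named in the report. Chance alone marks about 1 in 20 groups of this size, and 10.9% of genes were marked in the Mitsui-7 group (19 genes) and 4.57% in the control group (8 genes).

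On Mitsui-7 replicate 6, Spp1 stood low at 2.89, Trem2 low at 0.82, Tlr2 low at -0.77 and Clec4e low at -7.37, while Klf15 stood high at 0.049, Ppargc1a at -5.42 and Cyp1a1 at -7.06. On replicate 2, Bst2 stood high at 3.32, Icam1 at 3.95 and Cd8a at -2.74. On replicate 3, Col1a1 stood low at 2.35, Mt2A at 0.92, Slpi at -0.15, while Scgb1a1 stood high at 5.26. On replicate 1, Orm1 was high at -3.48, Rnase3 at -2.63 and Cd5l low at -7.52. Bnc1 was low on replicate 4 at -4.97, and Mdm4 was low on replicate 5 at 1.56.

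Of the 8 values in the control group, 5 lay on control replicate 6, the array that stood apart over all genes: Spp1 at -4.62, A2m at -7.63, C9 at -3.63, Ccnd1 at 1.30 and Cd5l at -7.31. The others were Gcnt3 at -8.19 and Upk3bl1 at -8.89 on replicate 2 and Cd4 at -0.58 on replicate 1.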

How the results depend on the processing

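For Mitsui-7 against control in p53het rats the count of called genes, 5578, was 2851 with no term for slide, 3043 with only the groups compared, 3172 in the authors' matrix and 226 when tested against a fold of 1.5 (206 higher, 20 lower), and it ran from 4248 (without Mitsui-7 replicate 5) to 6375 (without control replicate 6) when single arrays were left out. With replicate number as a block, 2945 genes were called for that comparison, 3460 for Mitsui-7 in WT rats, 347 for NM-403 and 325 between the nanotubes, in place of 5325, 941 and 498 for the last 3; the replicate numbers do not pair these rats. In WT rats the count was 3361 with no term for slide, 3420 with only the groups compared and 3363 in the authors' matrix, and 3606 to 5714 with single arrays left out. For NM-403 it was 372, 72 with only the groups compared, 1455 with array weights, and 612 to 1036 with single arrays left out. Between the nanotubes it was 331, 117 with only the groups compared, 1670 with array weights and 297 in the authors' matrix, and 338 to 623 with single arrays left out. For the difference between genotypes, 0 genes passed with limma, 26 with array weights, 3 in the authors' matrix, and 0 to 2 with single arrays left out. The cause of these shifts was not tested. Of 6496 values of single named genes under these alternatives, 5952 kept direction and side of the threshold, 541 no longer passed, 2 newly passed and 1 turned, Mdm2, at -0.0156 without control replicate 2 (its highest value with a single array left out was 0.0622). Probes near background limit the sizes of 85 rises and 23 falls to bounds.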
